A study of Macaca mulatta with 24 samples.

Results

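Ileum of rhesus macaques was compared between day 7 and day 4 after a single uniform dose of 6.7 Gy of total body irradiation (TBI) from a cobalt-60 gamma source. The samples were chosen by their labels alone, with 4 animals on day 7 and 4 other animals on day 4, which makes 8 of the 24 ileum samples of the series. All animals were young-adult males, each sample was whole gut tissue from 1 animal without pooling, and each was hybridized to 1 single-color Agilent rhesus array. The other samples were 4 sham-irradiated controls, labelled day 4 and serving every time point, 2 animals on day 12 after 6.7 Gy, and 10 animals after 7.4 Gy. The controls formed neither side of the contrast, and served to place each difference as a return toward the control level or a move past it. Like the rest of the 24 arrays, they also entered the filter on dim probes and the estimate of spread. Different animals were sampled on each day, so no animal was followed over time.

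The ileal lining is renewed from stem cells at the base of the crypts, whose daughters divide, migrate upward and mature into absorptive enterocytes, mucus-secreting goblet cells and hormone-secreting cells. Ionizing radiation kills dividing crypt cells and lymphocytes within hours to days, and activates p53, a transcription factor that switches on genes of DNA repair, growth arrest and cell death. When enough stem cells survive, crypts regrow and repopulate the villi over the following days. In whole tissue, fewer cells of a type and less RNA per cell cannot be told apart.

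The labelled tissue carried ileal transcripts. FABP6, the ileal bile acid-binding protein, had log2 levels of 7.00 to 8.98 over the 12 arrays of controls, day 4 and day 7, and SLC10A2, the ileal bile acid transporter, had 1.67 to 4.40. A level is the log2 processed signal minus the 75th percentile of its array. The colon gene CA1 was not well above background on any of the 12 arrays, while the water channel AQP8 was on 11 and the pepsinogen PGA4 on 12. The share of probes well above background ran from 72.7% to 87.3% on day 4 and from 78.5% to 86.8% on day 7. Day 4 replicates 1 and 4 had the smallest shares of the 8 arrays, at 72.7% and 76.8%. Day 4 replicates 1 and 2 were scanned on the second of 2 scan days and the other 6 arrays on the first.

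Day 7 differed from day 4 at 128 of 36108 probes tested (0.354%), by an adjusted p under 0.05 and a fold change of at least 2 in limma. Of these, 88 were higher on day 7 (0.244% of the probes tested) and 40 were lower (0.111%). They carried 72 distinct gene symbols, and 48 probes had none. Among the rises were VIL1 and FUT2 of the epithelial surface and the metabolic enzymes IDH1, CROT and GSTA3. Among the falls were the p53 targets GDF15, DDB2 and PLK2, the chemokines CCL2 and CCL21 and the endothelial receptor DARC. The median over all probes tested was 0.07, a value that the scaling of each array to its 75th percentile largely sets. At 125 of the 128 probes the 4 animals of one day all lay on one side of the 4 of the other, as they did at 11.4% of all probes tested. The calls rested on the spread shared by all 24 arrays, since a fit to the 8 arrays alone called 0 probes by limma, with 613 at an unadjusted p under 0.05 and the same fold limit. Leaving out 1 control array gave 100 to 130 called probes, and leaving out 1 array of day 4 or day 7 after 7.4 Gy gave 105 to 140. The number called fell to 32 without day 7 replicate 3 and was 187 without day 4 replicate 1, and 23 probes were called whichever of the 8 arrays was left out. Of the genes just named, FUT2, IDH1, GDF15, PLK2 and DARC had a probe among the 23, while VIL1, CROT, GSTA3, DDB2, CCL2 and CCL21 each lost the call without at least 1 array.

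**Figure D1:**
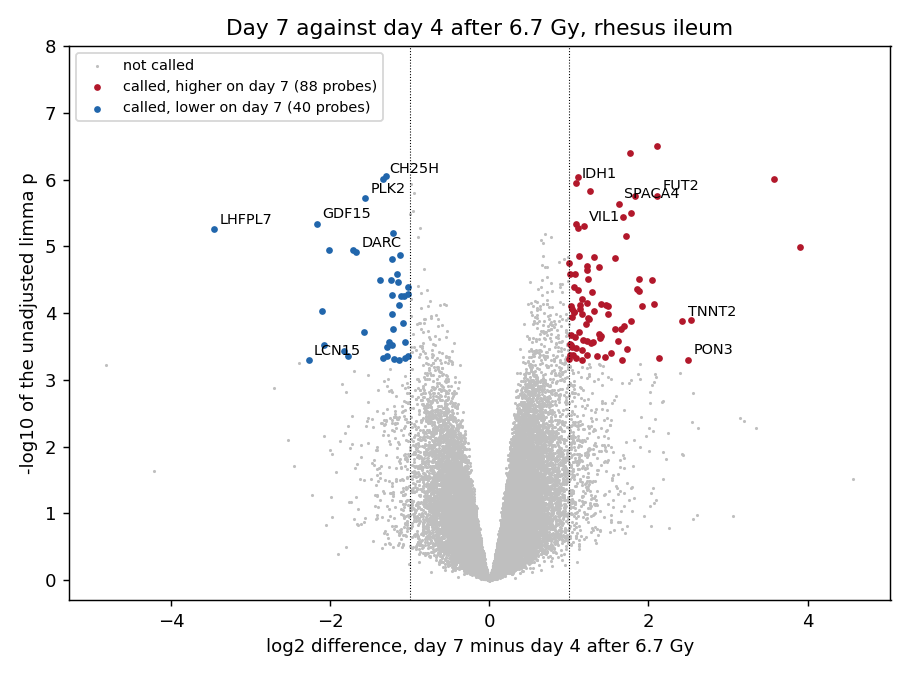
Each point is 1 of the 36108 probes tested, with the log2 difference between day 7 and day 4 after 6.7 Gy on the x axis and the negative log10 of the unadjusted limma p on the y axis. Dotted lines mark a 2-fold change, and the 88 probes called higher (red) and 40 called lower (blue) lie outside them.

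Nearly all called probes moved in the direction of the control mean, and 92 of the 128 ended past it. Past is set by sign alone, so it includes probes that ended farther from control than on day 4. PRDM1 was one, at 0.31 against control on day 4 and -0.83 on day 7. Of the 88 probes that rose, 78 ended on the other side of the control mean and 10 stopped short of it, with none further away. Their median lay 1.01 below control on day 4 (log2 difference of -1.01) and 0.33 above it on day 7. The moves past control were small, with a median of 0.37 on the log2 scale and a highest value of 1.38. None of the 78 was called against control on day 7, where 0.235% of all probes tested were (0.0526% higher and 0.183% lower), although the 95% interval of the difference left out 0 at 20 of them. Of the 40 probes that fell, 23 stopped part way, 14 went past the control mean and 3 moved further from it. Their median was 1.52 above control on day 4 and 0.11 above it on day 7. Still called against control on day 7 were 9 of the 40. Over all probes tested, 42.9% lay part way back on day 7, 34.7% past and 22.4% further away. The 3 contrasts share arrays, and a probe chosen for a large gap between the days tends by that choice to lie far from control on one of them, so these counts are a description with no test.

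**Figure D2:**
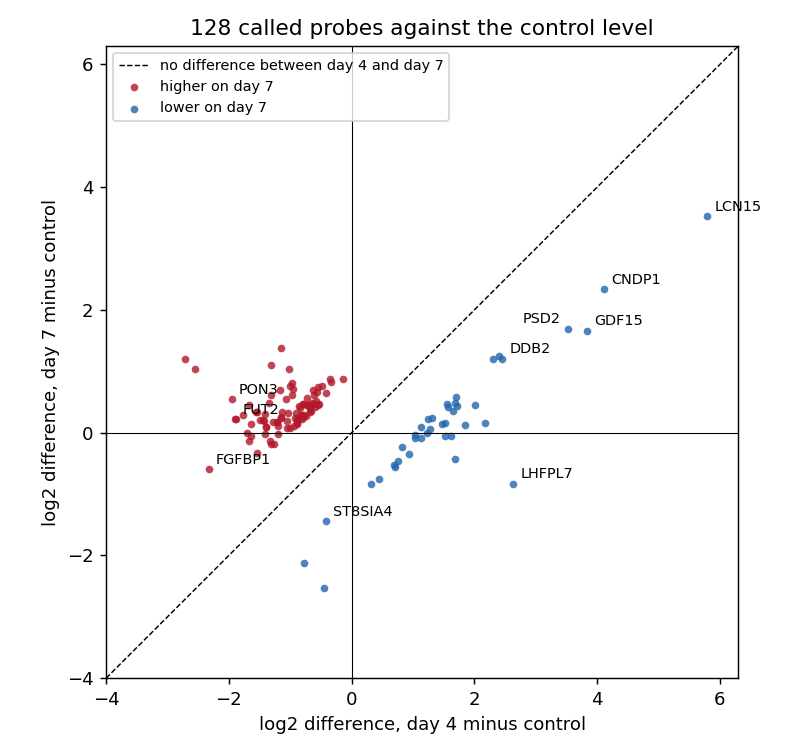
The 128 called probes by their log2 difference from control on day 4 (x axis) and on day 7 (y axis). Points near the horizontal line lay at about the control mean on day 7, as did most red points, while LCN15, CNDP1, PSD2, GDF15 and DDB2 lay above it.

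VIL1, FUT2 and CHP2, all known from the intestinal epithelium, rose from day 4 to day 7. FUT2, the fucosyltransferase that puts fucose on mucosal glycans, had log2 levels of -2.88, -3.28, -3.09 and -3.70 on day 4 and of -1.15, -1.62, -0.72 and -1.01 on day 7. The 4 controls had -1.18, -1.54, -1.31 and -1.34, so the day 7 animals lay around the control values and the day 4 animals far below both. The rise was 2.11 ± 0.32 (SE, n = 4 and 4; adjusted p = 0.0053), a fold change of 4.32, and the day 7 level differed from control by 0.22 (95% interval -0.44 to 0.88). VIL1, which encodes the actin-bundling protein villin of the brush border, had 2.73, 2.42, 2.88 and 1.91 on day 4 and 3.59, 3.64, 3.89 and 3.58 on day 7. The groups did not overlap, and the rise of 1.19 ± 0.19 (adjusted p = 0.0084) undid 89.7% of the difference between day 4 and control. CHP2, a calcineurin-like protein, rose by 1.39 ± 0.31 (adjusted p = 0.037) from a day 4 level 1.15 below control to 0.24 above it.

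CA12, CA7 and PRSS8 were called outside the rule by which genes were named, and were picked after their values were seen. CA12 and CA7, both carbonic anhydrases, rose by 1.26 and 1.22. PRSS8, the membrane-bound protease prostasin, rose by 1.17. The tight junction gene CLDN3 passed the adjusted p of 0.020 but not the fold limit, at 0.89 ± 0.17, with all 4 day 7 animals (5.81 to 6.28) above all 4 day 4 animals (4.91 to 5.32). Its list was mixed, with 10 of 17 tight junction genes higher and 7 lower, among them CLDN2 at -1.03 and CGNL1 at -1.68, and 0 called.

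PON3, GSTA3, ALDH1L2 and CROT, which encode metabolic enzymes, rose. PON3, a lactonase, had 1.45, 0.38, 1.18 and -1.48 on day 4 and 3.26, 3.21, 1.70 and 3.37 on day 7. Its rise of 2.50 ± 0.60 (adjusted p = 0.049) was the largest called among genes with an established symbol, with day 7 replicate 3 well below the other day 7 animals. It ended 0.55 past the control mean (95% interval -0.71 to 1.80). GSTA3, a glutathione transferase, had -2.27, -1.98, -3.06 and -3.43 on day 4 and -1.06, -1.19, -1.44 and -1.10 on day 7, while the controls had -0.46, -1.24, -1.65 and -1.78. It rose by 1.49 ± 0.30 (adjusted p = 0.025), to within 0.09 of the control mean.

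ALDH1L2, the mitochondrial enzyme that oxidizes 10-formyltetrahydrofolate, had -1.35, -1.78, -1.38 and -3.30 on day 4 and -0.07, -0.40, 0.01 and -0.57 on day 7. The rise of 1.70 ± 0.36 (adjusted p = 0.030) returned it to the control mean, with a difference of -0.01 (95% interval -0.77 to 0.76). CROT, the peroxisomal carnitine octanoyltransferase, rose by 1.03 ± 0.22 (adjusted p = 0.029), and its day 4 replicate 4 (-2.83) lay apart from the other day 4 animals (-1.61 to -1.54). Among called genes outside the naming rule, the cytosolic isocitrate dehydrogenase IDH1 had 3.27, 2.81, 3.13 and 2.89 on day 4 and 4.00, 4.29, 4.07 and 4.11 on day 7. SUCLG2, a subunit of succinyl-CoA ligase, rose by 1.09, and both probes of PCCA, a subunit of propionyl-CoA carboxylase, rose by 1.07 and 1.23. Both probes of the retinal dehydrogenase ALDH1A1 rose too, by 1.22 and 1.32. ALDH1A2, a second retinaldehyde dehydrogenase, moved the other way, falling from 0.41, 0.91, 0.67 and 0.66 on day 4 to -0.50, -0.90, -0.56 and -0.23 on day 7.

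The other named rises came from genes of varied function. TNNT2, the cardiac troponin T gene, had -2.82, -2.16, -2.63 and -3.77 on day 4 and -0.39, -0.08, -0.68 and -0.52 on day 7. Its rise of 2.43 ± 0.51 (adjusted p = 0.029) took it 1.11 past the control mean (95% interval 0.03 to 2.18), a move not called against control (adjusted p = 0.51). A second TNNT2 probe was called as well, with a rise of 2.07, while the third tested probe had 0.12 and was not called. FGFBP1, a secreted carrier of fibroblast growth factors, rose by 1.73 ± 0.40 and was still 0.60 below the control mean. BLNK, the B cell linker of antigen receptor signaling, had 1.75, 0.90, 1.16 and -0.13 on day 4 and 2.33, 2.26, 2.42 and 2.10 on day 7, a rise of 1.36 ± 0.32 (adjusted p = 0.048) to 0.33 past the control mean. Further rises were 2.05 for OR1B1, 1.78 for RNF152, 1.63 for SPACA4, 1.49 for SPPL2C, 1.41 for TCEA3, 1.40 for PHEX and 1.38 for DNAI1. RNF152 ended 0.81 past the control mean (95% interval 0.02 to 1.59), a move not called against control (adjusted p = 0.51), and the other 6 ended 0.09 to 0.29 past it. The other tested probes of some genes with a called rise were not called, at 1.32 for RNF152, 1.15 and 0.98 for TCEA3, 1.07 for PHEX, 1.01 for DNAI1 and 1.39 for CHP2. The array lists the OR1B1 probe only as LOC699905, and SPPL2C was well above background on 2 of 4 day 4 arrays. The largest called rises, 3.90 and 3.58, came from probes without a gene name here.

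**Figure D3:**
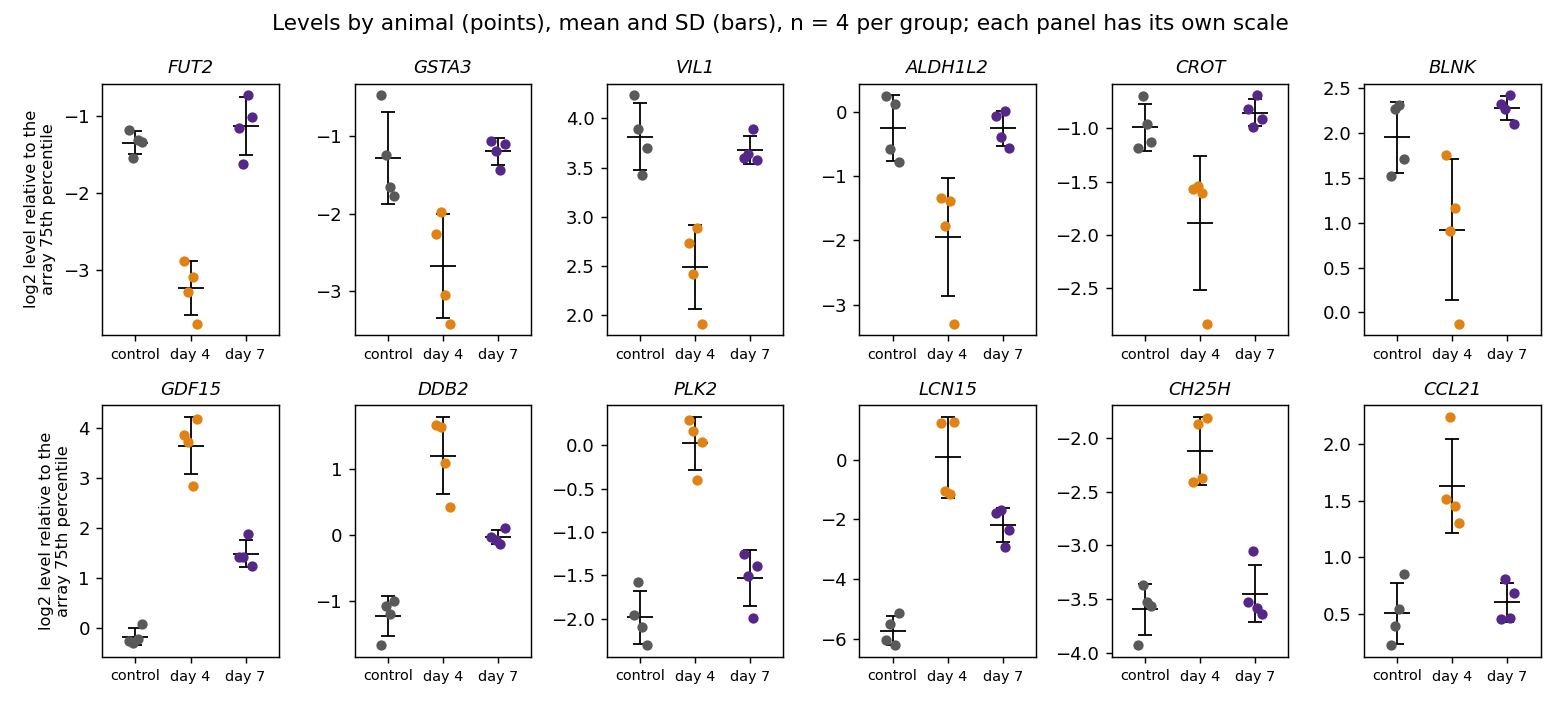
Log2 levels of 12 called genes in each of the 4 control, 4 day 4 and 4 day 7 animals after 6.7 Gy (points), with the mean and SD (bars). The upper row holds genes that rose to about the control level by day 7, and the lower row genes that fell, with GDF15, DDB2 and LCN15 still above control.

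The p53 targets GDF15, DDB2 and PLK2 fell from day 4 to day 7, and GDF15 and DDB2 remained above control. GDF15, a stress-induced secreted factor, had 3.87, 3.71, 2.84 and 4.18 on day 4, 1.41, 1.42, 1.88 and 1.23 on day 7, and -0.27, -0.30, -0.23 and 0.08 in the controls. The 3 groups did not overlap, and the fall of 2.16 ± 0.35 (SE; adjusted p = 0.0084) undid 56.6% of the day 4 difference. On day 7 GDF15 was still 1.66 above control (adjusted p = 0.034). DDB2, the damage-recognition factor of nucleotide excision repair, had 4.23, 4.21, 3.76 and 3.12 on day 4, 2.82, 2.68, 2.52 and 2.85 on day 7, and 0.98, 1.64, 1.67 and 1.80 in the controls at its brighter probe. That probe fell by 1.11 ± 0.22 and the other by 1.24 ± 0.23, and both were still called against control on day 7, by 1.19 and 1.21. PLK2, a polo-like kinase, fell by 1.56 ± 0.23 (adjusted p = 0.0053) from 0.29, 0.17, -0.41 and 0.04 to -1.25, -1.51, -1.99 and -1.39. Its day 7 mean was 0.45 above control (95% interval -0.04 to 0.94).

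The p53 list held 29 tested genes, of which 3 were called lower and 0 higher. Whether called or not, 22 were lower on day 7 and 7 were higher. TP53I3 had the highest difference, 1.19, and was not called. The list's median was -0.31 against 0.05 over all 14218 genes tested with 1 probe each, where 0.457% of the genes were called. EDA2R, a death-domain receptor of the TNF family, did not pass, at -1.09 ± 0.29 (adjusted p = 0.070), with 0.82, 1.14, 0.54 and -0.25 on day 4 and 0.06, -0.92, -0.71 and -0.55 on day 7. Its day 7 mean was 2.28 above control (adjusted p = 0.00092). The cell cycle inhibitor CDKN1A differed by -0.29 ± 0.23 and the p53 ubiquitin ligase MDM2 by 0.01 ± 0.18 (-0.01 under quantile normalization), and neither passed.

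LCN15, a lipocalin, was the called probe farthest from control on both days. It had 1.23, -1.04, -1.16 and 1.28 on day 4, -1.79, -1.70, -2.94 and -2.36 on day 7, and -6.04, -5.51, -6.21 and -5.12 in the controls (3 of 4 well above background). The fall of 2.27 ± 0.55 (adjusted p = 0.0497) undid 39.2% of the day 4 difference, and the day 7 level was still 3.52 above control (adjusted p = 0.0063). CNDP1, a carnosine dipeptidase, fell by 1.78 ± 0.42 and remained 2.34 above control (adjusted p = 0.014), with day 7 values of -2.57, -2.51, -2.11 and -2.37 against -4.94 to -4.56 in the controls. On day 12 after 6.7 Gy the 2 animals had -4.39 and -3.99 for LCN15, and 1.36 and 2.89 for GDF15.

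The chemokine genes CCL2 and CCL21 and the immediate-early gene EGR1 fell as well. CCL2, the monocyte chemoattractant, had -0.89, -0.53, -1.35 and 0.03 on day 4 and -1.79, -2.23, -1.81 and -2.05 on day 7, a fall of 1.28 ± 0.30 (adjusted p = 0.043). CH25H, the cholesterol 25-hydroxylase, had -2.41, -1.87, -2.37 and -1.82 on day 4 and -3.52, -3.06, -3.58 and -3.64 on day 7. Its fall of 1.33 ± 0.19 (adjusted p = 0.0052) brought it to 0.15 from the control mean. EGR1, an immediate-early transcription factor, fell by 1.37 ± 0.26 and ended 0.16 above control. CCL21, which draws T cells and dendritic cells into lymphoid tissue, had 1.52, 2.24, 1.45 and 1.31 on day 4, 0.46, 0.81, 0.46 and 0.68 on day 7 and 0.22 to 0.85 in the controls, a fall of 1.02 ± 0.20 (adjusted p = 0.022). A second CCL21 probe fell by 1.07.

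Of 55 tested genes of the TNF and NF-kB list, 3 were called lower (CCL2, EGR1 and PLK2) and 0 higher. Whether called or not, 48 were lower on day 7 and 7 were higher, with a median of -0.40 (-0.23 without day 4 replicate 4). The highest was FOSB, also an immediate-early gene, at 1.29, which was not called. TNF itself had -2.67, -1.63, -2.16 and -0.75 on day 4 and -2.31, -1.65, -1.98 and -1.83 on day 7, a difference of -0.14 ± 0.36 that did not pass and was 0.21 without day 4 replicate 4. The interferon-stimulated list had 0 called genes of 38 and a median of -0.33 (-0.07 without day 4 replicate 4). Its 2 largest differences were those of IDO1 and CXCL9, at -1.45 and -1.35, and in both the day 4 group held 1 high animal, replicate 4, at 3.76 and 1.30. CXCL10 had -1.11, -1.04, -0.29 and 2.52 on day 4, with the same animal highest, and did not pass.

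DARC, also called ACKR1, the atypical chemokine receptor of venular endothelium, fell at all 3 of its tested probes. The brightest had 0.67, 1.86, 0.53 and 1.36 on day 4 and -0.11, -0.34, -0.13 and 0.10 on day 7, a fall of 1.22 ± 0.24 (adjusted p = 0.023) to the control mean. Another probe fell by 1.67 ± 0.29 (adjusted p = 0.013). It was the 1 called gene of 20 tested in the endothelial list, in which 17 were lower on day 7.

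Lymphocyte genes did not move as 1 group. PRDM1, the transcription factor of plasma cell differentiation, had 0.21, 0.30, -0.13 and 0.43 on day 4 and -0.83, -0.78, -1.12 and -1.01 on day 7, and its fall of 1.14 ± 0.23 (adjusted p = 0.025) took it 0.83 below the control mean (95% interval of the difference -1.31 to -0.35; adjusted p = 0.14). PRDM1 was the 1 called gene of 15 tested in the plasma cell list. There 9 were lower and 6 higher on day 7, with a median of -0.11 and IRF4 highest at 0.34. In the B cell list 10 of 12 tested genes were higher on day 7 and BLNK was the 1 called. That list's median lay at -1.16 against control on day 4 and at -0.67 on day 7. In the T and cytotoxic lymphocyte list 23 of 32 were lower on day 7 and 0 were called, with the granzyme gene GZMK at -1.55 ± 0.49 and GZMA at -1.23 ± 0.55. The list's median against control was -0.46 on day 4 and -0.71 on day 7. ST8SIA4, a polysialyltransferase, was 1 of the 3 called probes that moved further from control, from -0.42 to -1.44, and the other 2 had no gene name. It was picked after its values were seen.

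The remaining named falls included dim probes. LHFPL7, which the array lists as TMEM211, had -3.18, -2.70, -4.78 and -3.23 on day 4 and -6.72, -7.36, -7.11 and -6.56 on day 7, where 1 of the 4 arrays was well above background. The fitted difference was -3.46 ± 0.57 (adjusted p = 0.0084), but the day 7 mean rests mostly on values not well above background. The probe passed the filter only through the day 4 groups of both doses, where it was high. The controls had -3.94, -6.88, -6.79 and -6.80, of which replicate 1 lay apart. One CATSPERG probe fell by 2.11 ± 0.43, with 3 of 4 day 4 and 2 of 4 day 7 arrays well above background, to 0.42 below the control mean, while its other 2 tested probes had -0.34 and 0.05 and were not called. PSD2 fell by 1.83 and was still 1.70 above control on day 7 (95% interval 0.80 to 2.59; adjusted p = 0.096). LHFPL7, CATSPERG and PSD2 were each well above background on 2 of 4 control arrays, so their differences from control rest partly on dim values. SPMIP11 fell by 1.72, JRK by 1.27 (well above background on 3 of 4 day 4 and 2 of 4 day 7 arrays) and TXNIP, a redox regulator, by 1.22. Against the control mean on day 7, SPMIP11 had 0.13, TXNIP -0.08, JRK -0.56 and LHFPL7 -0.83.

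Across 35 gene lists, several epithelial lists were mostly higher on day 7 without a called member. All 10 tested genes of bile acid uptake and the FXR axis were higher, with a median of 0.78 and 0 called. Their median against control was -0.56 on day 4 and 0.21 on day 7. SLC51B, a bile acid exporter of the enterocyte, had 1.29 ± 0.35 (adjusted p = 0.076), and the hormone gene FGF19 had 1.53 ± 0.91. All 17 genes of cholesterol synthesis and uptake were higher, with a median of 0.32, and STARD4 had 0.80 and INSIG1 0.63. All 8 goblet cell genes were higher, with a median of 0.48, AGR2 at 0.72 and CLCA1 at 0.63. Without day 4 replicate 4 these 3 medians were 0.41 for bile acid uptake, 0.28 for cholesterol and 0.22 for goblet cell genes.

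The drug-metabolizing enzyme and enterocyte lists depended more on that animal. Of 26 drug-metabolizing enzyme genes 24 were higher, with a median of 0.56 that was 0.12 without it, and CYP2D6 had 2.16 ± 0.61 (adjusted p = 0.086). The mean level of that list was 1.52, 0.96, 1.43 and -0.59 over the day 4 animals and 1.46 to 1.76 on day 7, so replicate 4 lay apart and replicate 1 fell among the day 7 animals. The enterocyte list had 17 of 23 higher, a median of 0.24 and VIL1 as its 1 called gene. Its mean level was 2.95, 2.57, 2.72 and 0.50 on day 4 and 2.22 to 2.55 on day 7. Day 4 replicates 1 to 3 thus lay above every day 7 animal and replicate 4 far below them, and without replicate 4 the median turned to -0.32. Over all genes tested 56.1% were higher on day 7.

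CYP1A1, a target of the aryl hydrocarbon receptor, had the highest difference among genes taken by their brightest probe. It had -4.22, -5.33, -3.05 and -8.24 on day 4, -0.47, -1.72, 1.02 and -1.38 on day 7 and 3.71, 3.29, -1.96 and 2.47 in the controls. The difference of 4.57 ± 1.96 did not pass (adjusted p = 0.22). In the AHR list 4 of 7 genes were higher, and NQO1 had 0.99.

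The macrophage, enteric neuron and glia, collagen, metalloproteinase, crypt niche and neutrophil and monocyte lists had medians below 0 and 0 called members. The macrophage list had 22 of 25 genes lower and a median of -0.39, with CLEC7A at -0.93 and MMP12 at 0.90. The enteric neuron and glia list had 14 of 16 lower and a median of -0.53, with SYT1 at -0.84 and VIP at -0.84. Collagens and matrix genes had 23 of 29 lower and a median of -0.36, with POSTN at -0.83 and SPARC at -0.75. The metalloproteinase list had a median of -0.44, with MMP2 at -0.63 ± 0.24, and the crypt niche list a median of -0.30, with DKK1 at -2.07 and BMP7 at -0.89. DKK1 was well above background on 3 of 4 day 4 arrays, 1 of 4 day 7 arrays and 0 of 4 control arrays. It thus passed the filter only through other groups of the series, and its day 7 mean rests mostly on values not well above background. The neutrophil and monocyte list had a median of -0.56, which was -0.01 without day 4 replicate 4. Its mean level was -3.54, -2.40, -3.42 and -1.08 on day 4 and -3.35 to -2.90 on day 7, so the day 4 animals lay on both sides of the day 7 animals. S100A8 had -1.21, which turned to 0.40 without that replicate. The mean level of the 25 macrophage genes ran from 0.14 to 0.58 over the day 4 animals, from -0.12 to 0.11 over the day 7 animals and from -0.03 to 0.25 over the controls, and each of the 25 was well above background on at least 1 array of both days. The collagen and matrix list ran from 0.29 to 1.31 on day 4 and from 0.10 to 0.40 on day 7. The part of such shifts in the falls of CCL2, DARC and EGR1 was not tested.

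The cell cycle and stem cell lists held no called gene. In the G2/M list 34 of 46 genes were higher, with a median of 0.09 (0.35 without day 4 replicate 4), 0 called, and ASPM at 0.86 and CENPF at 0.51. Its median stayed above control on both days, at 0.35 and 0.49. The S phase list had a median of -0.08 (0.13 without that animal), with CCNE1 at -0.76 and TYMS at -0.57. In the crypt stem cell list 10 of 12 tested genes were lower on day 7, with a median of -0.21, and its median against control was 0.56 on day 4 and 0.37 on day 7. EPHB3 had -0.86 ± 0.24 (adjusted p = 0.084). LGR5 and OLFM4 were the 2 members that were higher, neither of them past the test. LGR5 had -3.08, -2.61, -2.78 and -2.76 on day 4 and -2.80, -2.67, -2.85 and -2.48 on day 7, a difference of 0.11 ± 0.14 (95% interval -0.19 to 0.41), and its other tested probe had -0.19. OLFM4 had -6.01, -8.83, -3.14 and 0.64 on day 4 and -5.63, -3.31, -2.11 and -2.64 on day 7, with 2 of 4 day 4 arrays well above background.

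**Figure D4:**
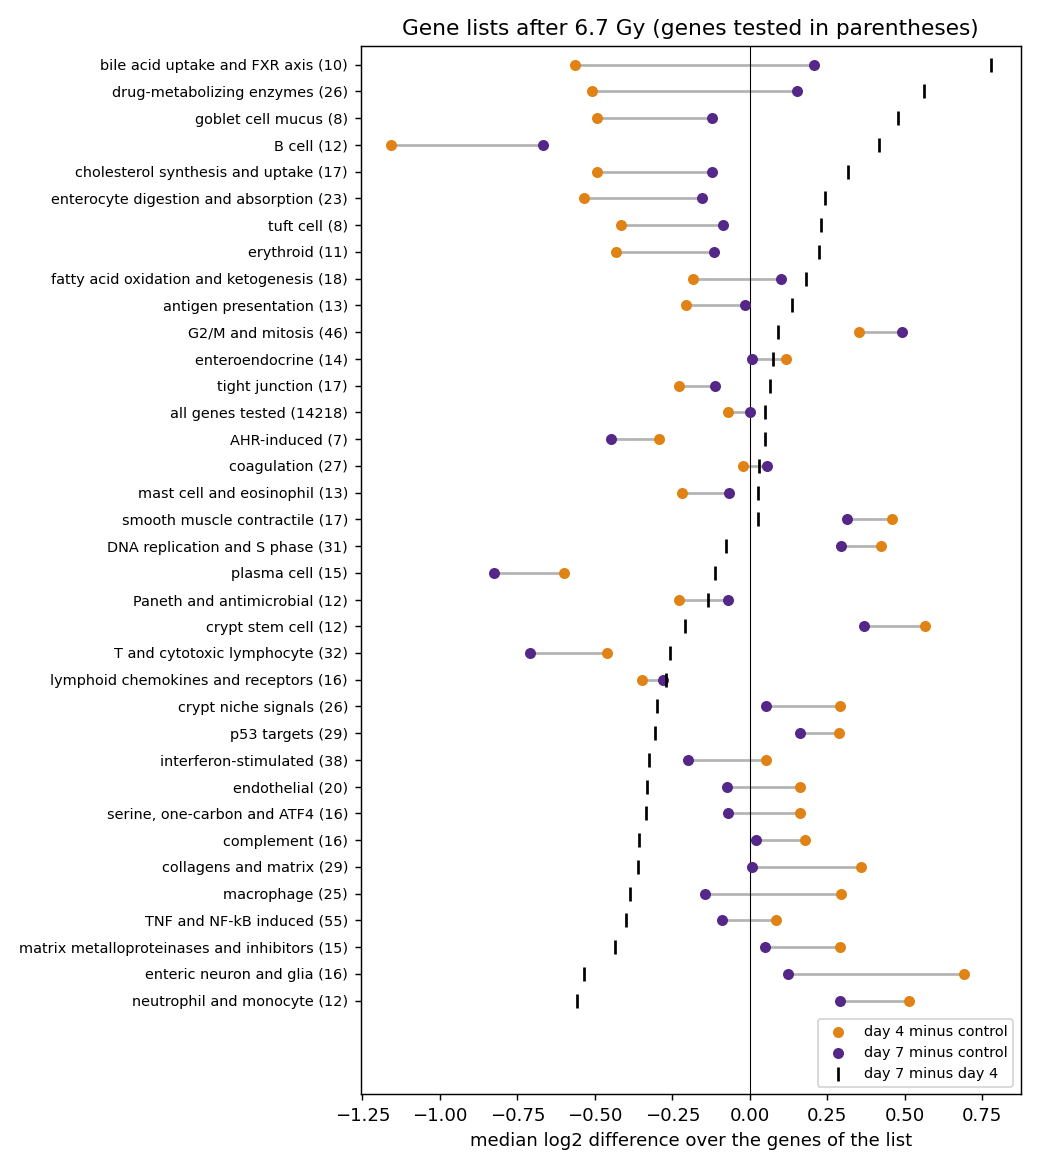
Median log2 difference over the tested genes of each of 35 gene lists and of all genes, as day 4 minus control (orange), day 7 minus control (purple) and day 7 minus day 4 (black ticks). Lists are sorted by the last, from bile acid uptake at 0.78 to neutrophil and monocyte genes at -0.56.

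ALDH1L2 was the 1 called gene of 16 in the serine, one-carbon and ATF4 list, where 11 were lower on day 7 and the median was -0.33. CROT was the 1 called gene of 18 in the fatty acid oxidation list, where 12 were higher and 6 lower, with a median of 0.18. Paneth and antimicrobial genes had a median of -0.13 that turned to 0.64 without day 4 replicate 4, with PIGR at 1.21 and DMBT1 at 1.18, and enteroendocrine genes 0.07, with GIP at -1.98 and PYY at 1.36. Tight junction genes had 0.07, and tuft cell genes 0.23, with IL17RB at 0.55 and GNG13 at 0.45. Antigen presentation genes had 0.14, with ERAP2 at 0.87 and TAP1 at 0.76, complement genes -0.36, with C6 at 1.81 and CFB at -0.84, and coagulation genes 0.03, with FGB at 1.71 and F13A1 at -1.52. Mast cell and eosinophil genes had 0.03, with FCER1A at -0.79 and PRG2 at 0.78, and smooth muscle genes 0.03, with ACTC1 at 2.07 and PGM5 at -0.42. Of the genes named here for the Paneth list and those after it, only PRG2 passed the adjusted p (0.035), without the fold limit and with 2 of 4 day 4 arrays well above background.

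The erythroid gene HBB stayed far below control on both days. The controls had 0.80, 1.38, 2.51 and 2.76, day 4 had -4.44, -3.03, -4.90 and -4.61, and day 7 had -6.03, -4.57, -4.36 and -5.01. Day 7 differed from day 4 by -0.75 ± 0.62, which did not pass, and from control by -6.86 (adjusted p = 2e-05). The brush border lactase gene LCT differed by -0.44 ± 0.49.

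The same interval after 7.4 Gy was measured in other animals, whose arrays formed neither side of the 6.7 Gy contrast but entered its filter and its estimate of spread. There 340 of 36108 probes (0.942%) differed between day 7 and day 4, 214 higher (0.593%) and 126 lower (0.349%). Of the 128 probes called after 6.7 Gy, 119 (93.0%) moved in the same direction after 7.4 Gy, against 69.3% of all probes tested, and 60 were called, all 60 in the same direction. FUT2 rose by 2.06 after 7.4 Gy (adjusted p = 0.002) and VIL1 by 1.004 (adjusted p = 0.0087). GDF15 fell by 2.33, LCN15 fell by 3.96 and LHFPL7 fell by 4.33, the latter again with 1 of 4 day 7 arrays well above background. CHP2 rose by 2.03 and PRDM1 fell by 1.48. Not called at that dose were PON3 at 1.87 (adjusted p = 0.089), GSTA3 at 0.77, TNNT2 at 0.79, BLNK at 0.96 and EGR1 at -0.81.

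The difference between doses was called at 0 probes by limma, with 351 at an unadjusted p under 0.05 and a 2-fold difference. For FUT2 the difference between doses was 0.05 (95% interval -0.88 to 0.98), and for LCN15 it was 1.69 (0.07 to 3.31).

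**Figure D5:**
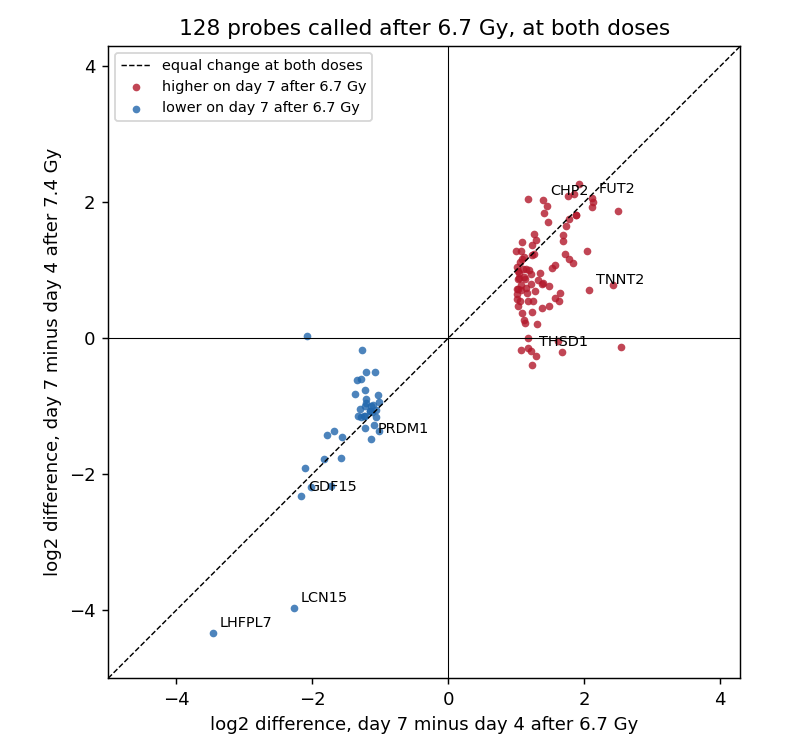
Log2 difference between day 7 and day 4 after 6.7 Gy (x axis) and after 7.4 Gy (y axis) for the 128 probes called after 6.7 Gy. Of them 119 lie on the same side of 0 at both doses, and LCN15 and LHFPL7 lie below the dashed line of equal change.

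Slide and scan day were uneven between the days. Only slides 1 and 2 held both a day 4 and a day 7 array of this dose, and all 128 called probes had the sign of the contrast within both, as did 20287 of the 36108 probes tested. Since these arrays also entered the calls, that sign was largely fixed by the choice of probes. With the slide as a block 60 probes were called, of which 45 were among the 128, and with the scan day as a block 66, of which 55 were. Without the 2 day 4 arrays with the smallest shares of probes well above background, replicates 1 and 4, 59 were called, 23 higher and 36 lower. Every day 7 array of this dose lay at position 3 of its slide and every day 4 array at position 1 or 2, so position and day cannot be told apart.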

How the data were processed

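RNA of whole ileum from each animal was hybridized to 1 single-color Agilent rhesus array; the study's methods required an RNA integrity number of at least 6. The authors deposited scanner files with a processed intensity per spot, already background-corrected by the scanner software, and a table of log2 values scaled to the 75th percentile of each array and centered per probe on its median. For the analysis here, log2 of the processed intensity minus the 75th percentile of each array was used, after removing control spots and averaging spots of a probe, which gave 43603 probes. Tests covered the 36108 probes that the scanner software marked as well above background throughout 1 or more of the 7 groups. Groups were taken from the sample labels. A model of 7 group means over all 24 arrays was fitted in limma 3.58.1 (R 4.3.3), with Benjamini-Hochberg adjustment over all probes tested, and a probe was called at an adjusted p under 0.05 and a fold change of at least 2. Differences are log2, errors are SE of the fit unless given as SD, and intervals are 95%.

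Symbols came from the files, updated through RefSeq by accession for 8317 probes, and 23795 probes had one. For gene lists the brightest tested probe stood for each gene, and 3 genes were matched by an older symbol. The samples, lists and tests were chosen with earlier results of these data known. Named were the 15 largest called rises and falls with 1 symbol and groups that did not overlap, every called list member or, in lists without one, the 2 largest differences, and a set of genes from the study's topics. MKI67 of that set had no probe named for it. A few genes that the rule named are not reported here. A difference was to be given as a bound where a probe was not well above background on any array of a group, which held for no named probe on day 4 or day 7. Where only some arrays of day 4 or day 7 were, their number stands beside the value, apart from IL17RB, CYP1A1 and S100A8 (3 of 4 on day 4) and CLEC7A (3 of 4 on day 7). The median-signal column served for the normexp alternative. Tested on simulated data for this comparison with 36108 probes, the fit recovered 82.1%, 92.5% and 97.0% of changes of 1.5, 2 and 3 log2 units. The simulated noise was independent between probes and held no slide, scan day or single-animal effect, so these shares do not cover such effects. Alternatives were other background, scaling, filters and models, blocks for slide, scan day and replicate number, and leaving out arrays.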

Additional observations from a re-analysis of the deposited data

Results flagged for a closer look

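Among 285 groups of 4 animals of the named probes, 15 held 1 animal whose gap to the next, as a share of the range of its group, was above the 95% limit of Dixon's test, and chance alone gives about 1 in 20. Day 4 replicate 4, whose share of probes well above background was 76.8%, was that animal 5 times. It had -7.50 for SPPL2C against -6.17 to -5.96 in the other day 4 animals, 4.39 for DMBT1 against 0.66 to 1.24, 0.50 for CGNL1 against -4.07 to -3.68, 0.48 for CCNE1 against -0.58 to -0.42, and -2.83 for CROT against -1.61 to -1.54. Without that animal DMBT1 was called higher on day 7, at 2.03.

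Day 7 animals stood apart in 4 genes. Replicate 1 had -0.92 for PHEX against -1.80 to -1.77 and 0.0803 for INSIG1 against 0.99 to 1.13. Replicate 3 had 1.70 for PON3 against 3.21 to 3.37, and replicate 4 had -1.19 for STARD4 against -0.61 to -0.49.

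Control replicate 1 stood apart in 5 genes, with -3.94 for LHFPL7 against -6.88 to -6.79, -5.98 for F13A1 against -4.34 to -4.02, -2.93 for PGM5 against -1.25 to -0.98, -4.47 for SYT1 against -2.54 to -2.25, and -0.67 for DARC against 0.01 to 0.11. Control replicate 4 had 0.51 for AGR2 against -0.30 to -0.21. The causes were not tested.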

How the results depend on the processing

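The direction of all 128 called probes held under every alternative that tested them, but the number called did not. That direction was largely fixed in advance. Several alternatives use the same difference of group means. At 125 of the 128 probes the groups did not overlap, so leaving out 1 array could not turn the sign. It was 86 with normexp, 104 with quantile normalization, 128 from the authors' table, 86 to 136 under other filters, 135 with trend and robust fitting and 161 with a random slide block. It was 60 with a fixed slide block, 371 by the adjusted p alone, 447 by the methods' t-test unadjusted, and 0 by that test after Benjamini-Hochberg or in the 8 arrays alone. With replicate number as a block it was 0, and the numbers share no pairing, since deviations of same-numbered animals correlated at -0.04 to 0.06 and 0 of 4 matched their own number best. Chosen after seeing the data, a scan day block gave 66, the first scan day alone 46 (with 1 probe then called for the difference between doses, otherwise 0), and omission of day 4 replicates 1 and 4, which had the smallest shares of probes well above background, 59. Leaving out 1 array gave 32 to 187, and under 86 without day 4 replicate 2 (48) or day 7 replicates 1 (48), 2 (52), 3 (32) and 4 (73).

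Of the called probes, 6 to 61 lay part way back, 26 to 149 past control and 0 to 2 further away with 1 array left out, and 18, 41 and 1 with a fixed slide block. Without day 4 replicates 1 and 4, 14 lay part way back and 44 past control. With no filter 0 were further away. The share moving the same way after 7.4 Gy was 96.5% with normexp and 95.2% with quantile normalization.

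No called gene reversed, an outcome largely fixed in the same way as for the called probes. OLFM4 turned to -0.044 with normexp, -0.12 with a fixed slide block and -2.17 on the first scan day, and ran from -0.59 to 2.57 with 1 array left out. MDM2 turned to -0.00689 under quantile normalization and -0.14 without day 4 replicates 1 and 4 (-0.15 to 0.092 with 1 left out). MMP12 turned to -0.030 and LGR5 to -0.046 with a fixed slide block, and LGR5 to -0.00618 with a scan day block and -0.00359 without day 4 replicates 1 and 4. Without day 4 replicate 4, S100A8 turned to 0.40 (range -2.41 to 0.40) and TNF to 0.21 (range -0.43 to 0.21). Of 35 list medians, 5 changed sign without day 4 replicate 4, those of the enterocyte (-0.32), Paneth (0.64), S phase (0.13), coagulation (-0.07) and smooth muscle (-0.11) lists, and 6 without replicates 1 and 4, the same 5 and tight junction (-0.05). By more than the spread between animals, 4 medians moved without replicate 4 and 7 without both. Causes were not tested. Dim probes near background limit the smallest levels.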
